A study of Homo sapiens with 15 samples.

Results

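The 10 genes described here are regulators of the epithelial state: the splicing regulators ESRP1 and ESRP2, the Grainyhead-like transcription factors GRHL1, GRHL2 and GRHL3, the OVO-like zinc finger factors OVOL1 and OVOL2, and the epithelium-specific ETS factors ELF3, EHF and ELF5. They were taken by symbol from the deposited expression table, where all 10 are present among 33158 gene symbols.

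Epithelial cells keep their junctions, polarity and keratins through a small set of transcription factors that act on the same junction and surface genes, and through splicing regulators that select the epithelial forms of many transcripts. Grainyhead-like and OVO-like factors are known to oppose ZEB1 and the other repressors that drive epithelial to mesenchymal transition, and those repressors in turn act on epithelial genes through E-box sequences. In breast cancer lines the CD44+/CD24-/low surface phenotype is used to enrich for cells with stem-like properties, and such cells often carry mesenchymal features.

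The study measured poly(A) mRNA by sequencing in human triple negative breast cancer lines, that is, lines without estrogen receptor, progesterone receptor or HER2 amplification. Cells of SUM149 (SUM149PT) and of HCC1937 had been separated by flow sorting into cancer stem cells (CSC, the CD44+/CD24-/low gate) and the remaining cells (non-CSC), and SUM159 (SUM159PT) was taken unsorted and labelled as cancer stem cells as a whole. This gives 5 groups of 3 libraries: SUM149 non-CSC, SUM149 CSC, HCC1937 non-CSC, HCC1937 CSC and SUM159. No treatment is recorded for any of the 5 groups, and the labels do not say whether the 3 libraries of a group come from separate cultures, so the p-values given here measure only the spread between libraries, which may be technical.

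Levels are in FPKM, fragment counts scaled by transcript length and by the fragments mapped in the library, which allows genes of different length to be compared within a library. The read depth is unknown, because the table holds no counts. Summed over all genes, the 12 sorted libraries ranged from 291276 to 366532 FPKM and had 11249 to 11997 genes above 1 FPKM. The SUM159 libraries stood apart, with sums of 634746 to 652082 FPKM and 8534 to 8670 genes above 1 FPKM. Across genes, the fold change of SUM159 against the sorted CSC also followed the GC content of the transcript, with a Spearman rho of 0.610 against SUM149 CSC and 0.533 against HCC1937 CSC, while rho lay between -0.18 and 0.0742 in the other 5 comparisons (genes are not independent replicates). Comparisons with SUM159 are therefore given apart from those of the sorted lines. The similarity between genes was computed over all 15 libraries, with SUM159 among them. The part of these library features in either was not tested.

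The labels were first compared with the genes of the sorted surface proteins and with markers of cell types. CD24 averaged 139 FPKM in SUM149 non-CSC and 7.74 in SUM149 CSC, and 150.04 FPKM in HCC1937 non-CSC and 23.3 in HCC1937 CSC. CD44 was abundant on both sides of the gate, at 64.5 and 84.4 FPKM in SUM149 non-CSC and CSC and at 97.8 and 106 FPKM in HCC1937. The gate was thus visible in CD24 mRNA, whereas CD44 mRNA differed by log2 fold changes of 0.39 in SUM149 and 0.12 in HCC1937, neither of them past the limit of 1. The 7 breast epithelial markers summed to 2266 FPKM in SUM149 non-CSC and 194 in SUM149 CSC, and to 1684 and 660.0 FPKM in HCC1937. KRT19 was the most abundant of them in SUM149 non-CSC (1127 FPKM) and KRT18 in HCC1937 non-CSC (611 FPKM). SUM159 held 288 FPKM of these markers, nearly all of it KRT18 and KRT8 (153 and 132 FPKM), with EPCAM at 0.0467 and CDH1 at 0.0681 FPKM.

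Markers of other cell types were read as well. Of the 6 leukocyte markers CD68 was the most abundant in each group (group means of 16.2 to 48.3 FPKM), CD3E was listed at 0 in each group, and PTPRC and LYZ stayed under 0.1 FPKM. The list summed to 48.5 and 16.4 FPKM in SUM149 non-CSC and CSC, 40.8 and 42.9 in HCC1937 and 32.2 in SUM159. CD68 was called lower in SUM149 CSC (-1.57, adjusted p = 5.11e-06 in limma), 1 of the 2 leukocyte markers tested there, and 0 of 2 were called in HCC1937. The 4 endothelial markers summed to 1.71 FPKM in SUM149 non-CSC and 0.168 in SUM149 CSC, to 0.884 and 0.716 in HCC1937 and to 0.288 in SUM159. Of these CDH5 (-2.70), VWF (-2.48) and PECAM1 (-1.20) were called lower in SUM149 CSC, where CDH5 and VWF were under 0.1 FPKM, and CDH5 also in HCC1937 CSC (-1.28, adjusted p = 0.0155). Over the alternative settings their smallest changes were -0.687, -0.705 and -0.315 in SUM149 and -0.282 for CDH5 in HCC1937, all under the fold limit. With 1 library left out the adjusted p of CDH5 in HCC1937 reached 0.0596 in limma. The 6 fibroblast markers summed to 68.6 FPKM in SUM149 non-CSC and 237 FPKM in SUM149 CSC, and to 7.08 and 12.3 FPKM in HCC1937. In SUM149 the sum was mostly COL1A1, at 49.0 and 216 FPKM, and the list was mixed, with 3 of the 5 markers tested called higher in CSC and 1 lower. COL3A1 was at 1.92 FPKM in non-CSC and 9.56 in CSC (2.26), PDGFRB at 0.978 and 9.08 (3.10), DCN at 16.2 and 1.80 (-3.10) and LUM, not called, at 0.391 and 0.165 FPKM. In HCC1937 CSC 1 of the 3 fibroblast markers tested was called higher and 0 lower. This was COL1A2, at 0.225 FPKM in non-CSC and 0.863 in CSC (1.58, adjusted p = 0.00292 in limma, and 0.603 to 1.93 over the settings). The part of such cells or genes in the results was not tested. Among the genes of the triple negative definition, PGR was at or near 0. The group means of ESR1 were at most 1.66 FPKM and those of ERBB2 ranged from 3.55 to 19.1 FPKM.

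The sequence before the transcription start is shown for EHF, which was called between fractions in neither line, and for 3 members that were called. RefSeq promoters on GRCh38.p14 were available for 5 of the 10 genes (GRHL1, GRHL3, ELF3, EHF and ELF5, with 7 starts in all). The 250 bases before the start were searched on both strands for the Grainyhead motif AACCNGTT, the E-box CACCTG bound by ZEB and SNAIL factors, the ETS motif GGAAGT and the OVO-like motif CCGTTA; none of these motifs contains another. Of 34943 promoters of this length, 1.49% hold AACCNGTT, 17.5% CACCTG, 19.5% GGAAGT and 2.45% CCGTTA. The windows of ELF3 (plus strand, chr1:202010337-202010586), GRHL3 at the first of its 2 starts (plus strand, chr1:24319107-24319356), GRHL1 (plus strand, chr2:9951443-9951692) and EHF at the first of its 2 starts (plus strand, chr11:34624007-34624256) read as follows, 5′ to 3′, with matches in capitals.
ELF3: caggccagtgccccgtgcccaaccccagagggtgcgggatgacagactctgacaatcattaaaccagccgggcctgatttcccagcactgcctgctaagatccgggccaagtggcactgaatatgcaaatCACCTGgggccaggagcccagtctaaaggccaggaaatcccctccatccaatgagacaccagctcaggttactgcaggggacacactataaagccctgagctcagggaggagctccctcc
GRHL3: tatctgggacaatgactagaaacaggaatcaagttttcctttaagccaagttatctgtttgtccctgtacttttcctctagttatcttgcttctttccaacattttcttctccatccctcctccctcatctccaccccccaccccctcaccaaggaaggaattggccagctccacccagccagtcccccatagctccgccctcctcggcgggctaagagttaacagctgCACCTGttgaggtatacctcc
GRHL1: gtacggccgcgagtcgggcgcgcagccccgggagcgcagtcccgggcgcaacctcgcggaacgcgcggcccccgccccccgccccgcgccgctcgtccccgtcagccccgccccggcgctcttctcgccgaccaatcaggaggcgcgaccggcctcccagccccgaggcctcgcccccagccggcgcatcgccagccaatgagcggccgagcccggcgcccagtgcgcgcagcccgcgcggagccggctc
EHF: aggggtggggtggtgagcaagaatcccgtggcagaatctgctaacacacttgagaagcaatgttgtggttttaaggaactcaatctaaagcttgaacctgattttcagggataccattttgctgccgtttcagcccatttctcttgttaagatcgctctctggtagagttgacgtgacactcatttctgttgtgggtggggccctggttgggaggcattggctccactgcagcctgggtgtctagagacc
ELF3 holds 1 CACCTG that begins 120 bases before the start, and GRHL3 holds 1 that begins 21 bases before it. The GRHL1 window, at 81.6% G and C, and the EHF window, at 50.0%, hold none of the 4 motifs, and neither do the second start of GRHL3, the second start of EHF and the start of ELF5. ESRP1, ESRP2, GRHL2, OVOL1 and OVOL2 are named only.

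The first question was how the regulators differ between CSC and non-CSC of the same line. In SUM149, 7 of the 9 members tested were lower in CSC, where 22.1% of the 16037 genes tested were lower, and 0 were higher, where 12.8% of the genes tested were. In HCC1937, 8 of the 10 members were lower in CSC, against 6.00% of 15582 genes, 1 of the 8 being ELF5, which could be called in no other direction, and 0 were higher, against 2.71%. Called means an adjusted p of at most 0.05 in limma, with Benjamini-Hochberg adjustment over all genes tested, and a log2 fold change of 1 or more in size. The median log2 fold change of the members tested was -3.92 in SUM149 and -2.27 in HCC1937, against -0.11 and -0.03 over all genes tested. Fold changes are differences of log2(FPKM + 0.1), which understates the change of genes with low levels. These are bulk samples, in which fewer cells that express a gene and less RNA per cell cannot be told apart.

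**Figure D1:**
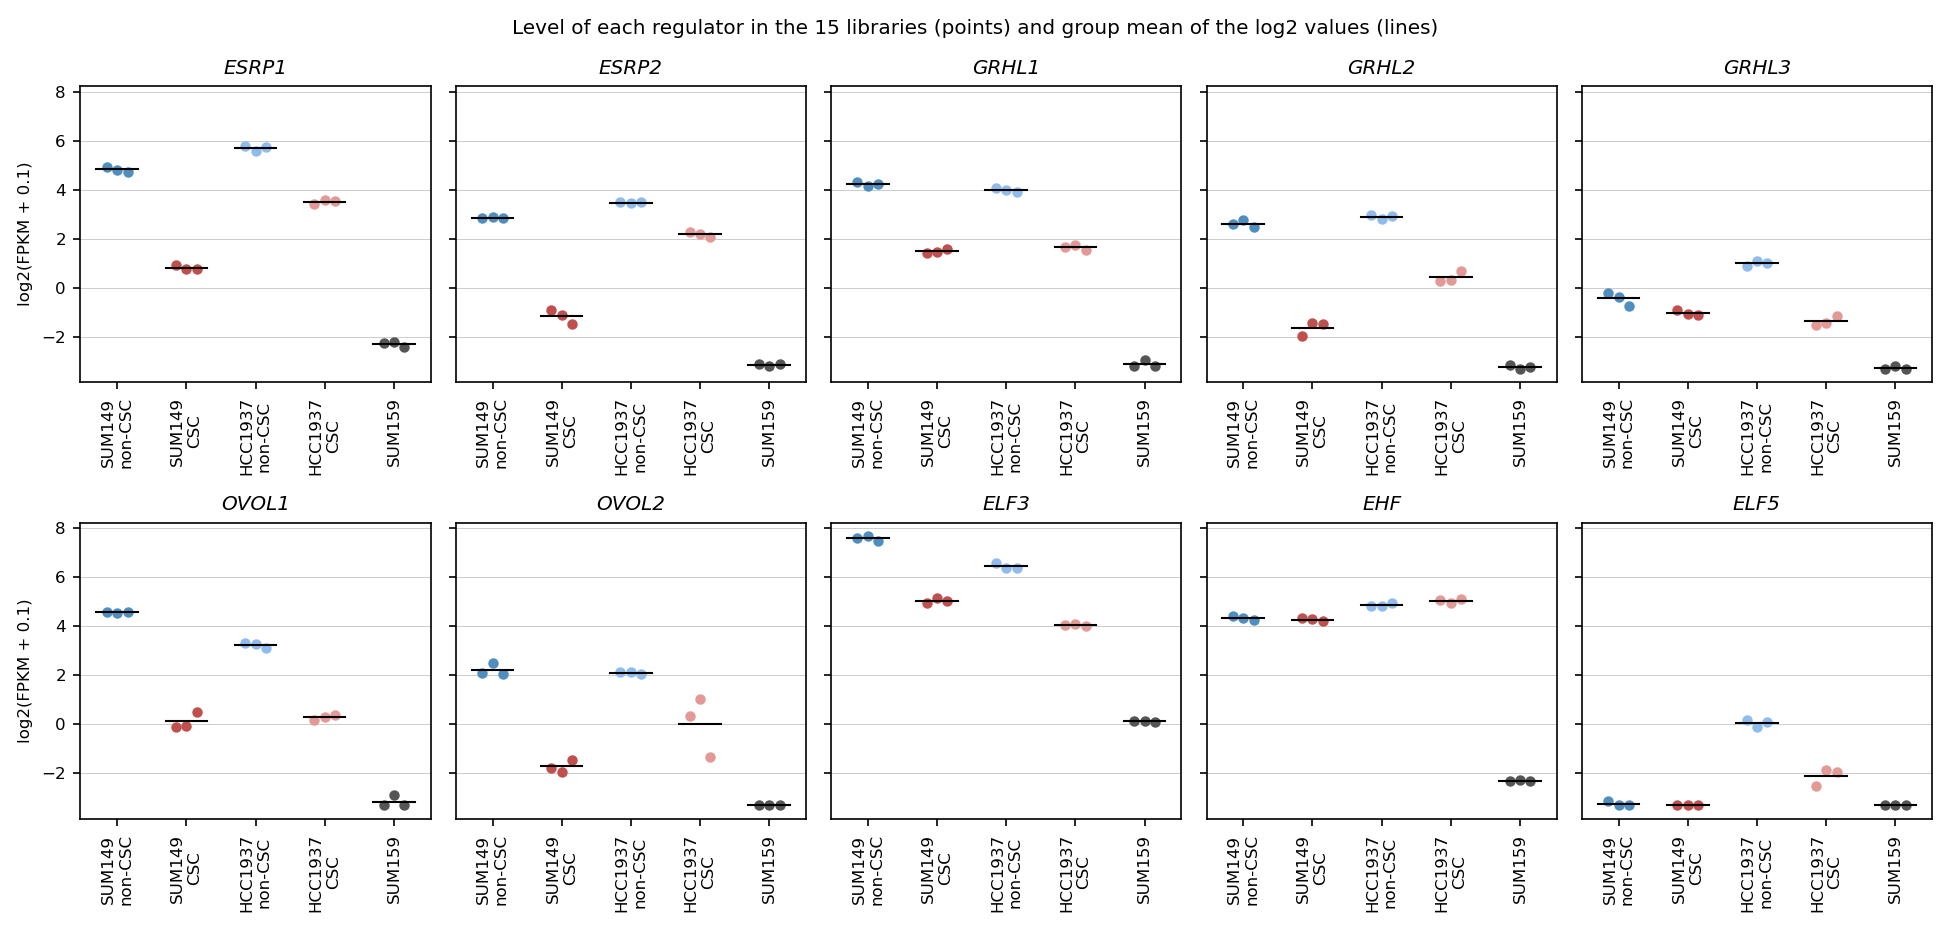
Level of each regulator as log2(FPKM + 0.1) on the vertical axis in the 5 groups, with 1 point per library and a line at the mean of the 3. The CSC points lie below the non-CSC points of the same line for 8 genes in both lines, those of EHF overlap, and the SUM159 points lie lowest in every panel except that of ELF5, where they share the floor with SUM149.

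The levels give an order of abundance. In SUM149 non-CSC the members ranged from ELF3 at 191 ± 14.8 FPKM (SD, n = 3) through ESRP1 at 28.2 ± 2.15, OVOL1 at 23.4 ± 0.530, EHF at 20.1 ± 1.17 and GRHL1 at 18.6 ± 0.952 down to GRHL3 at 0.644 ± 0.138, with ELF5 near 0. The libraries of EHF and GRHL1 overlapped in that order, as did those of GRHL2 and OVOL2. In HCC1937 non-CSC ELF3 again ranked first at 87.1 ± 7.96 FPKM, followed by ESRP1 at 51.9 ± 3.48 and EHF at 29.03 ± 1.55, and no neighbours in the order overlapped. In SUM149 CSC ELF3 at 32.8 ± 2.21 and EHF at 19.1 ± 0.694 FPKM stood above the rest, which began with GRHL1 at 2.68 ± 0.203. There the libraries of GRHL3 overlapped with those of ESRP2, ESRP2 with GRHL2 and GRHL2 with OVOL2. In HCC1937 CSC the first rank passed to EHF at 32.7 ± 2.00 FPKM, ahead of ELF3 at 16.4 ± 0.633. Summed over the 10 genes, the level was 300.1 ± 17.4 FPKM in SUM149 non-CSC and 58.4 ± 1.95 in SUM149 CSC, and 218 ± 11.7 FPKM in HCC1937 non-CSC and 71.7 ± 0.120 in HCC1937 CSC.

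ESRP1 (8:94641074-94707466, plus strand, GRCh38) encodes an RNA binding protein that promotes the epithelial splice forms of FGFR2, CD44 and other transcripts. Its level was 30.5, 27.8 and 26.3 FPKM in the SUM149 non-CSC libraries and 1.79, 1.61 and 1.59 FPKM in the CSC libraries. In HCC1937 it was 54.5, 47.9 and 53.3 FPKM in non-CSC and 10.4, 11.9 and 11.4 FPKM in CSC. All non-CSC libraries lay above all CSC libraries of the same line, and HCC1937 CSC lay above SUM149 CSC without overlap. The log2 fold change was -4.00 in SUM149 (SE 0.0831, adjusted p = 1.82e-06), a ratio of means of 17.0, and -2.20 in HCC1937 (SE 0.0889, adjusted p = 0.000146), a ratio of 4.62.

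ESRP2 (16:68229111-68238102, minus strand), the paralog of ESRP1 with largely shared targets, was less abundant throughout. It was measured at 7.12, 7.22 and 7.08 FPKM in SUM149 non-CSC and at 0.432, 0.360 and 0.258 FPKM in SUM149 CSC. HCC1937 gave 11.0, 10.8 and 11.0 FPKM in non-CSC and 4.67, 4.50 and 4.11 FPKM in CSC. The fractions separated in both lines, and the mean in HCC1937 CSC was 12.6 times that in SUM149 CSC. The log2 fold change was -4.03 in SUM149 (SE 0.149, adjusted p = 6.70e-06), a ratio of 20.4, and -1.29 in HCC1937 (SE 0.0730, adjusted p = 0.000291), a ratio of 2.47, the smallest change among the 8 members called in HCC1937. NFATC3 overlaps ESRP2 on the opposite strand, and since the strand of the libraries is not stated, reads from the overlap cannot be told apart.

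GRHL2 (8:101492432-101669726, plus strand) is the Grainyhead-like factor best known for holding ZEB1 down and for activating E-cadherin and claudin genes. SUM149 gave 5.91, 6.62 and 5.42 FPKM in non-CSC and 0.153, 0.268 and 0.253 FPKM in CSC. HCC1937 gave 7.77, 6.86 and 7.49 FPKM in non-CSC and 1.11, 1.15 and 1.49 FPKM in CSC. Non-CSC levels were close in the lines, while the CSC of HCC1937 had more than the CSC of SUM149, with no overlap. GRHL2 fell, with a log2 fold change of -4.24 in SUM149 (SE 0.168, adjusted p = 8.26e-06) and -2.47 in HCC1937 (SE 0.126, adjusted p = 0.000225).

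GRHL1 (2:9951693-10002277, plus strand), a factor of the same family known for desmosomal cadherin expression in the epidermis, was the most abundant of the 3. Its level was 19.6, 17.7 and 18.6 FPKM in SUM149 non-CSC and 2.54, 2.60 and 2.92 FPKM in CSC, and 16.8, 15.8 and 14.8 FPKM in HCC1937 non-CSC and 3.08, 3.24 and 2.75 FPKM in CSC. Here the CSC libraries of the lines overlapped, and the log2 fold changes were -2.75 (SE 0.0781, adjusted p = 3.36e-06) and -2.35 (SE 0.0921, adjusted p = 0.000136). GRHL3 (1:24319322-24364482, plus strand), which is required for the epidermal barrier and neural tube closure, was low. It reached 0.764, 0.675 and 0.493 FPKM in SUM149 non-CSC and 0.424, 0.370 and 0.359 FPKM in CSC, against 1.76, 2.03 and 1.89 FPKM in HCC1937 non-CSC and 0.246, 0.271 and 0.341 FPKM in CSC. Each CSC library was below each non-CSC library of its line, but the log2 fold change in SUM149, -0.60 (SE 0.152, adjusted p = 0.0128), was under the fold limit (-0.018 with quantile normalization, adjusted p = 0.914), and GRHL3 fell in HCC1937 (-2.37, SE 0.115, adjusted p = 0.000195). STPG1 overlaps GRHL3 on the opposite strand and was at 2.81 FPKM in SUM159, where GRHL3 was near 0.

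OVOL1 (11:65787022-65797219, plus strand) encodes a zinc finger repressor that promotes epithelial differentiation. Its libraries read 23.5, 22.9 and 23.9 FPKM in SUM149 non-CSC and 0.832, 0.856 and 1.29 FPKM in CSC. In HCC1937 they read 9.84, 9.55 and 8.46 FPKM in non-CSC and 1.01, 1.13 and 1.19 FPKM in CSC. The non-CSC fractions of the lines differed, whereas the CSC fractions ended at overlapping levels. OVOL1 fell in both lines, with -4.45 in SUM149 (SE 0.165, adjusted p = 6.77e-06) and -2.96 in HCC1937 (SE 0.0967, adjusted p = 0.000128), and in HCC1937 its value lay at percentile 0.404 of all genes tested. OVOL1-AS1 overlaps it on the opposite strand and averaged under 0.7 FPKM in each group, with single libraries up to 1.28 FPKM.

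OVOL2 (20:17956979-18059188, minus strand), which represses ZEB1 and keeps mammary epithelial cells from undergoing the mesenchymal transition, was at 4.11, 5.50 and 4.005 FPKM in SUM149 non-CSC and at 0.192, 0.160 and 0.264 FPKM in CSC, a log2 fold change of -3.92 (SE 0.177, adjusted p = 1.25e-05). HCC1937 gave 4.26, 4.24 and 4.07 FPKM in non-CSC and 1.14, 1.93 and 0.293 FPKM in CSC. All 3 CSC libraries of HCC1937 were below all 3 non-CSC libraries, but replicate 3 lay far under the others. The log2 fold change was -2.11 (SE 0.593, adjusted p = 0.0513, 95% interval -3.58 to -0.63) and was not called. Leaving out HCC1937 CSC replicate 3 gave -1.43 (adjusted p = 0.0160) and leaving out replicate 2 gave -2.62 (adjusted p = 0.0280), both of which pass, as do 5 other settings; over all settings the adjusted p ran from 0.00228 to 0.0800, and from 0.0160 to 0.134 over the libraries left out in turn. SNX5 on the same strand and MGME1 on the opposite strand overlap OVOL2, and both averaged above 1.8 FPKM in SUM159, where OVOL2 was listed at 0.

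ELF3 (1:202007945-202017188, plus strand), an ETS factor induced by inflammatory signals in many epithelia, was the most abundant member in every group except HCC1937 CSC. Its level was 194, 205 and 176 FPKM in SUM149 non-CSC and 30.7, 35.1 and 32.7 FPKM in CSC. HCC1937 gave 96.3, 82.6 and 82.3 FPKM in non-CSC and 16.3, 17.0 and 15.7 FPKM in CSC. SUM149 was higher than HCC1937 in either fraction, and the fractions were separated by a nearly equal factor in the lines. ELF3 fell in both lines, with -2.54 in SUM149 (SE 0.0866, adjusted p = 5.35e-06), a ratio of 5.83, and -2.40 in HCC1937 (SE 0.0887, adjusted p = 0.000128), a ratio of 5.32.

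EHF (11:34621093-34661057, plus strand), an ETS factor of glandular and squamous epithelia, was the 1 member that was not called in either line. It was at 21.4, 19.8 and 19.1 FPKM in SUM149 non-CSC and at 19.7, 19.3 and 18.4 FPKM in CSC. In HCC1937 it was at 28.2, 28.1 and 30.8 FPKM in non-CSC and at 33.6, 30.5 and 34.2 FPKM in CSC. CSC and non-CSC libraries overlapped in both lines. The log2 fold change was -0.07 in SUM149 (95% interval -0.24 to 0.10, adjusted p = 0.385, and 0.02 after upper quartile scaling) and 0.17 in HCC1937 (95% interval -0.03 to 0.37, adjusted p = 0.182), so a change of the size seen for ELF3 lies outside both intervals.

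ELF5 (11:34478793-34513805, minus strand), a factor of the luminal progenitor and milk-producing lineage, is the neighbour of EHF at a distance of 107.3 kb, and CD44 follows 477.8 kb beyond EHF on the same chromosome. ELF5 was listed at 0 in all SUM149 CSC libraries and in 2 of 3 SUM149 non-CSC libraries (0.0129 FPKM in replicate 1), too low to be tested in that line. HCC1937 gave 1.04, 0.811 and 0.947 FPKM in non-CSC and 0.0750, 0.172 and 0.158 FPKM in CSC, without overlap. ELF5 was called lower in HCC1937 CSC (-2.15, SE 0.194, adjusted p = 0.00111). At its CSC level it could pass the expression minimum and the fold limit only in this direction, and with a pseudocount of 1 in place of 0.1 the value was -0.77, under the fold limit. In HCC1937 the log2 fold changes of ELF5, EHF and CD44 were -2.15, 0.17 and 0.12, and only that of ELF5 was called. Differences between these genes were not tested.

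**Figure D2:**
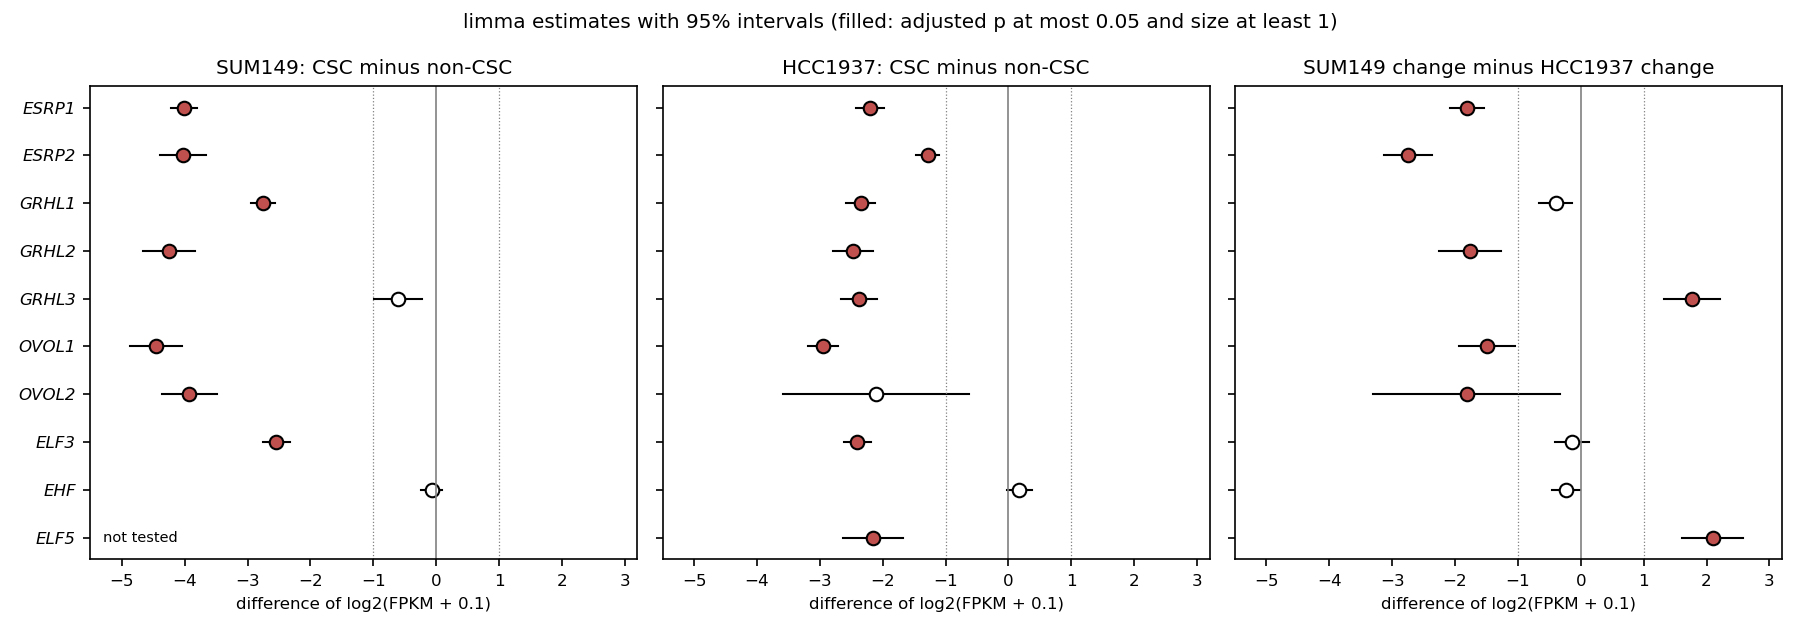
Differences of log2(FPKM + 0.1) from limma on the horizontal axis with 95% intervals, for CSC minus non-CSC in SUM149 and in HCC1937 and for the SUM149 change minus the HCC1937 change (3 libraries per group, dotted lines at -1 and 1, filled points called). ESRP2 has the most negative line difference at -2.74, GRHL3 and ELF5 lie on the positive side at 1.77 and 2.10, and OVOL2 has wide intervals in HCC1937 and in the line difference.

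The next question was whether the change between fractions differs between the lines, which was tested by the interaction term over the 12 sorted libraries. Of the 10 members, 5 had a more negative change in SUM149 than in HCC1937, where 18.2% of 16451 genes did, and 2 had a more positive one, where 12.2% did, 1 of them ELF5. The median over the members was -0.95, against -0.08 over all genes tested. The more negative group holds both splicing regulators, ESRP2 at -2.74 (SE 0.170, adjusted p = 6.05e-07) and ESRP1 at -1.81 (SE 0.120, adjusted p = 9.34e-07), together with GRHL2 at -1.77 (SE 0.220), OVOL1 at -1.50 (SE 0.199) and OVOL2 at -1.82 (SE 0.667, adjusted p = 0.0373). GRHL3 at 1.77 (SE 0.199) and ELF5 at 2.10 (SE 0.216) went the other way, but ELF5 was at or near 0 in SUM149 and entered the fit only through HCC1937, so its difference restates the change in HCC1937 and compares no change between the lines. ELF3 differed by -0.14 (95% interval -0.41 to 0.14, adjusted p = 0.358), EHF by -0.24 (adjusted p = 0.0584) and GRHL1 by -0.40 (adjusted p = 0.0143), all under the limit of 1.

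Several of these differences rest on low levels. With a pseudocount of 1 the differences of GRHL2 (-0.61), GRHL3 (0.92), OVOL2 (-0.82) and ELF5 (0.76) no longer reached the limit of 1, which leaves 3 members called. OVOL2 lost its call when any 1 of the 12 libraries was left out other than replicate 3 of HCC1937 CSC and replicate 3 of SUM149 CSC, with adjusted p from 0.000116 to 0.0782 and differences from -2.49 to -1.30.

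The comparison of the lines within 1 fraction shows in which fraction the lines differ, and it shares its libraries with the comparisons above. Among non-CSC, 4 of 10 members differed between HCC1937 and SUM149, where 42.7% of 16433 genes did, so the members were close to the background. Over all genes 3619 were higher in HCC1937 and 3402 lower, or 3337 and 4383 with TPM rescaling. GRHL3 (1.44) and ELF5 (3.30) were higher in HCC1937 and OVOL1 (-1.33) and ELF3 (-1.14) were lower. ELF5 was near 0 in SUM149 non-CSC and passed the expression minimum only through HCC1937, so higher was its only possible outcome, and the size of its value is set by the pseudocount (0.94 to 6.15 over the settings). With a pseudocount of 1 the values of GRHL3 (0.82) and ELF5 (0.94) were under the limit. Among CSC, 4 of 9 members differed, where 43.8% of 15952 genes did, again near the background. All 4 were higher in HCC1937, where 4166 of all genes were higher and 2828 lower: ESRP2 by 3.35 (SE 0.157, adjusted p = 1.07e-05), ESRP1 by 2.68 (SE 0.0834, adjusted p = 2.71e-06), GRHL2 by 2.07 (SE 0.186, adjusted p = 0.000145) and OVOL2 by 1.72 (SE 0.606, adjusted p = 0.0421). The counts over all genes became 3486 higher and 3312 lower with quantile normalization. They were 2899 and 3021 with the GC trend removed, an alternative chosen after seeing the data.

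ESRP1 and ESRP2 were thus at 0.88 and 0.61 between the non-CSC fractions and at 2.68 and 3.35 between the CSC fractions, while OVOL1 was at -1.33 and 0.17. For ELF3, HCC1937 against SUM149, CSC, the value of -0.999 lay just under the limit. It passed at -1.03 without HCC1937 CSC replicate 2, at -1.05 and -1.001 without SUM149 CSC replicates 1 and 3, at -1.17 with upper quartile scaling, at -1.16 with quantile normalization, at -1.09 with TPM rescaling, at -1.003 with a pseudocount of 0.01 and at -1.32 with the GC trend removed, an alternative chosen after seeing the data. The OVOL2 call among CSC did not hold when any library other than HCC1937 CSC replicate 3 was left out (adjusted p from 0.00103 to 0.115 over the 6 libraries), and it was also lost with no expression minimum, upper quartile scaling, TPM rescaling, the replicate block, the GC trend removed and quantile normalization (1.48, adjusted p = 0.0689). With a pseudocount of 1 GRHL2 was at 0.88 and OVOL2, HCC1937 against SUM149, CSC, at 0.74.

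Shares within a family do not depend on the scaling between libraries, and they were compared between fractions by a two-sided exact permutation test over libraries, in which 3 against 3 cannot go below p = 0.10. ELF3 made up 90.5% of the summed FPKM of ELF3, EHF and ELF5 in SUM149 non-CSC and 63.1% in CSC, and 74.3% in HCC1937 non-CSC and 33.3% in CSC. No CSC library reached a non-CSC library of its line (exact p = 0.10 in each). GRHL2 made up 23.7% of the Grainyhead-like sum in SUM149 non-CSC and 6.79% in CSC without overlap (exact p = 0.10), and 29.4% and 27.4% in HCC1937 with overlap (exact p = 0.50).

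ESRP1 held 79.8% of the ESRP sum in SUM149 non-CSC and 82.8% in CSC with overlap (exact p = 0.20), and 82.6% and 71.7% in HCC1937 without overlap (exact p = 0.10). OVOL1 held 83.8% and 82.8% of the OVOL sum in SUM149 (exact p = 0.60) and 68.8% and 54.7% in HCC1937 (exact p = 0.40), where the CSC libraries gave 47.0%, 36.9% and 80.3%. None of the 8 share tests had an adjusted p under 0.20, and none could go below 0.10 with these numbers of libraries.

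**Figure D3:**
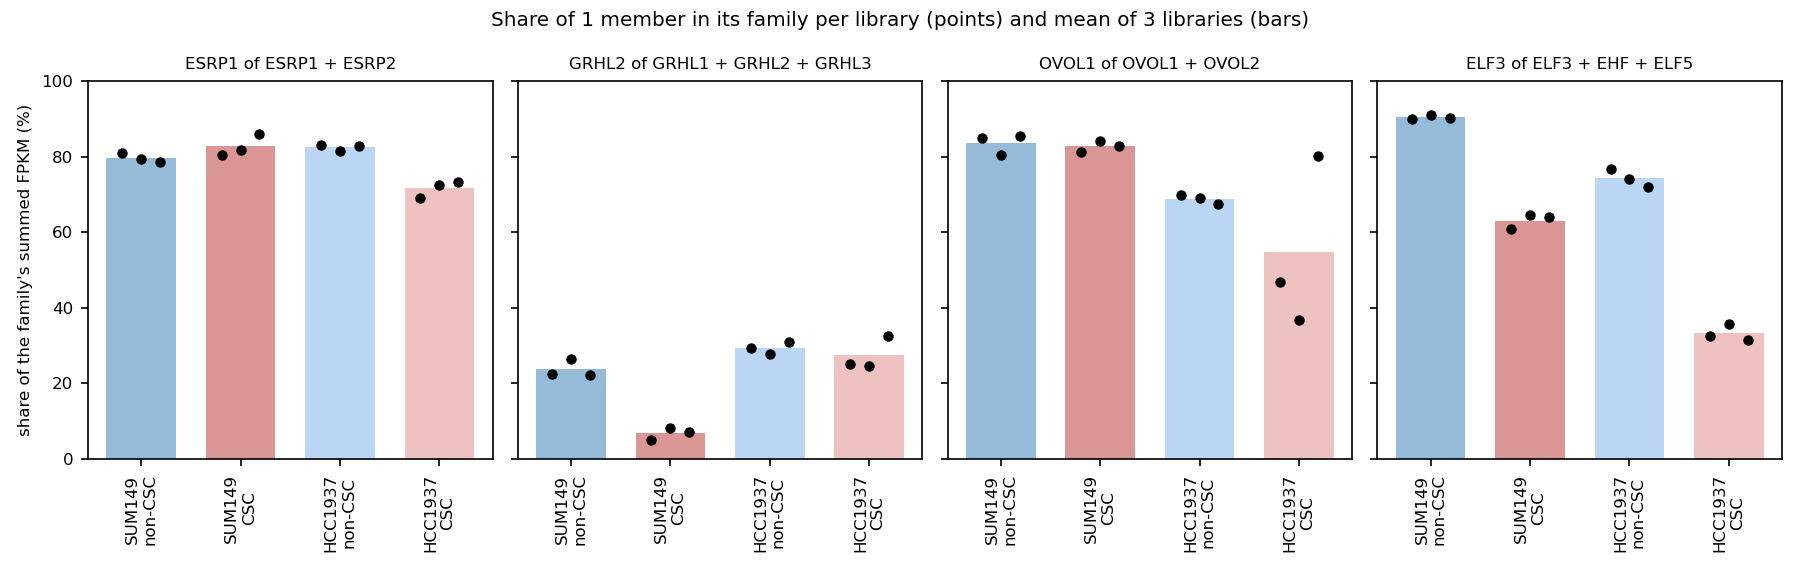
Share of 1 member in the summed FPKM of its family (vertical axis, in %) in the sorted groups, with 1 point per library and bars at the mean of 3. ELF3 stands at 90.5% in non-CSC and 63.1% in CSC of SUM149 and at 74.3% and 33.3% in HCC1937, GRHL2 at 23.7% and 6.79% in SUM149, and the OVOL1 share spreads from 36.9% to 80.3% in HCC1937 CSC.

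The unsorted line bears on another question, whether SUM159, labelled as cancer stem cells without a sort, carries less of these regulators than sorted CSC. Its libraries gave 0.994, 1.01 and 0.958 FPKM of ELF3, and the other members stayed near or under 0.1 FPKM. ESRP1 was at 0.111, 0.112 and 0.0863 FPKM and EHF at 0.101, 0.104 and 0.0980 FPKM, and ESRP2, GRHL1, GRHL2, GRHL3 and OVOL1 averaged between 0.00332 and 0.0153 FPKM. OVOL2 and ELF5 were listed at 0 in all 3 libraries. The 10 genes summed to 1.24 ± 0.0636 FPKM, against 58.4 in SUM149 CSC and 71.7 in HCC1937 CSC.

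All 9 members tested were lower in SUM159 than in SUM149 CSC, where 45.6% of 14976 genes were, and 9 of 9 were lower than in HCC1937 CSC, where 48.3% of 15515 genes were. The expression minimum is on the mean of both groups. All of the 9 members other than ELF3, at about 0.1 FPKM or less in SUM159, could pass it only through their level in CSC, so for them lower was the only possible call and the 2 counts say little beyond the levels above. The median of all genes tested was itself -0.76 and -0.97. EHF was at -6.58 (SE 0.0658) against SUM149 CSC and -7.35 (SE 0.0853) against HCC1937 CSC. ELF3 was at -4.92 and -3.92, GRHL1 at -4.60 and -4.76, and ESRP1 at -3.12 and -5.80. EHF and ESRP1 were near the pseudocount of 0.1 in SUM159, and over the settings EHF ran from -7.94 to -4.19 and from -8.63 to -4.94, and ESRP1 from -4.43 to -1.09 and from -7.08 to -3.47. The count against SUM149 CSC was 7 without replicate 2 or without replicate 3 of SUM149 CSC, where GRHL2 and OVOL2 were under the expression minimum.

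For the members near or at 0 in SUM159, GRHL1 included, the size of the fold is set by the pseudocount. With a pseudocount of 1, 4 members passed the limit against SUM149 CSC (ESRP2 at -0.41, GRHL2 at -0.28, GRHL3 at -0.46, OVOL1 at -0.97 and OVOL2 did not). After removal of the GC trend, an alternative chosen after seeing the data, the count was 9 of 9 in both comparisons. Of the 8 mesenchymal markers 1 was higher and 5 were lower in SUM159 than in SUM149 CSC, and 3 were higher and 2 lower than in HCC1937 CSC. Of the 7 repressors of the epithelial state 1 was higher and 4 were lower, and 2 higher and 3 lower. Over all genes tested 3187 were higher and 6828 lower of 14976, and 2864 higher and 7498 lower of 15515. With quantile normalization these counts were 4819 higher and 4658 lower, and 4868 higher and 4891 lower. With TPM rescaling they were 1287 and 10034, and 1540 and 10519. VIM was at 1078 FPKM in SUM159, 2090 in SUM149 CSC and 917 in HCC1937 CSC, and TWIST2 at 38.8, 11.9 and 0.0556 FPKM. ZEB1 and ZEB2 were at 0.204 and 0.158 FPKM in SUM159, at 6.82 and 4.36 FPKM in SUM149 CSC and at 7.22 and 3.10 FPKM in HCC1937 CSC.

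The genes that these regulators are known to act on, and other genes of the same programme, were read from lists of epithelial junction and surface genes, repressors, splicing regulators and markers. Beside the counts of each list stand the shares of all genes tested, 22.1% lower and 12.8% higher in SUM149 and 6.00% lower and 2.71% higher in HCC1937. A gene near 0 in 1 fraction passes the expression minimum only through the other, which fixes the direction it can be called in. In SUM149, 18 of the 19 epithelial junction and surface genes tested fell and 0 rose, with a median of -4.33, and in HCC1937 19 of 20 fell, with a median of -2.21. Among them were the claudin CLDN7 (-4.82) and the polarity gene CRB3 (-4.77) in SUM149, and the recycling GTPase RAB25 (-2.79) and the protease PRSS8 (-2.70) in HCC1937. Not called were CDS1 in SUM149 (-0.63) and MARVELD2 in HCC1937 (-0.63). For 16 of the 20 genes the change was more negative in SUM149 by the interaction test, where 18.2% of all genes were, and for 1 more positive. The keratins and EPCAM of the breast epithelial list followed, with 6 of 7 lower in each line and KRT14 as the exception (-0.59 and -0.64).

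Repressors of the epithelial state moved in both directions in SUM149, where 4 of 7 rose and 3 fell. ZEB1 rose by 2.99, from 0.776 to 6.82 FPKM, and ZEB2 by 1.98, while SNAI1 fell (-2.59) from 373 FPKM to 61.9 FPKM. In HCC1937 3 of 6 rose and 0 fell, with ZEB2 at 2.30, ZEB1 at 2.09 and TWIST1 at 1.63, and SNAI1 was at 9.19 and 9.97 FPKM (0.12). TWIST1 went the other way in SUM149, from 7.12 FPKM in non-CSC to 3.45 FPKM in CSC. ZEB1 and ZEB2 were thus higher in the fraction where GRHL2 and OVOL1 were lower, in both lines. Of the 8 mesenchymal markers 6 rose in SUM149 and 7 in HCC1937, led by the intermediate filament gene VIM at 3.11 and 2.57.

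**Figure D4:**
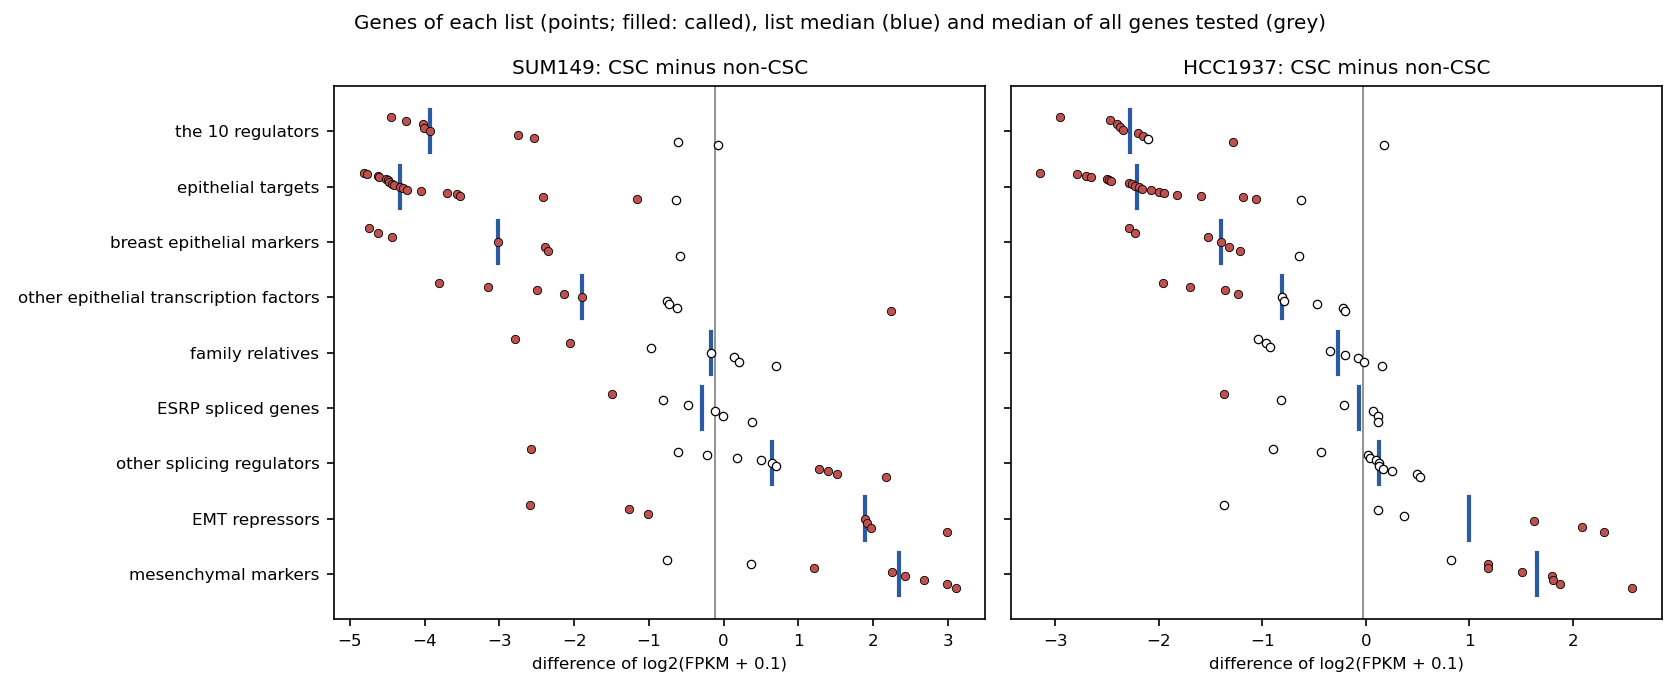
Differences of log2(FPKM + 0.1) between CSC and non-CSC on the horizontal axis for the genes of each list (points, filled where called), with the median of the list in blue and that of all genes tested in grey. The 10 regulators, the epithelial targets and the breast epithelial markers have medians of -3.92, -4.33 and -3.02 in SUM149 and -2.27, -2.21 and -1.40 in HCC1937, and the mesenchymal markers 2.34 and 1.65.

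Other relatives of the same protein families were read as well. Of 7 further Grainyhead/CP2, OVO-like and ETS genes tested in SUM149, where 22.1% of all genes fell, 2 fell (TFCP2L1 at -2.79, which was -0.89 with a pseudocount of 1 and at 0.0505 FPKM in CSC could only be called lower, and ELF4 at -2.05), with a list median of -0.17, and 0 of 8 were called by limma in HCC1937 (4 of 8 at an unadjusted p under 0.05), with a median of -0.27. ELF4, an ETS factor of many tissues, went from 58.3 to 14.0 FPKM in SUM149 and was at 21.9 and 21.6 FPKM in HCC1937. Among the other transcription factors listed here as epithelial, 5 of 9 fell in SUM149, among them FOXQ1 (-3.80) and TFAP2C (-2.50). In the same list 1 rose, the basal factor TP63 (2.24, from 2.37 to 11.5 FPKM). In HCC1937 4 of 9 fell, among them the luminal factors GATA3 (-1.70) and FOXA1 (-1.36), and TP63 was at -0.81. GATA3 and FOXA1 were lower in SUM149 CSC as well, from 9.35 to 2.44 FPKM and from 7.82 to 1.71 FPKM. FOXQ1 was at 31.1 FPKM in HCC1937 non-CSC, 13.2 in HCC1937 CSC and 10.2 in SUM159.

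Genes whose exons ESRP1 and ESRP2 are known to regulate were read at the gene scale. FGFR2 was the 1 of 6 that fell in each line (-1.49 and -1.37). In SUM149 it was at 0.217 FPKM in non-CSC and 0.0110 in CSC, so that lower was its only possible outcome, and in HCC1937 it was at 1.28 and 0.440 FPKM. With a pseudocount of 1 FGFR2 was at -0.27 and -0.67. CTNND1 was at -0.81 and -0.82 and ENAH at 0.00 and 0.07. The table gives 1 value per gene, so the choice of exons was not measured. Of 11 other splicing regulators tested, 4 rose and 1 fell in SUM149, with RBM47, which favours epithelial splice forms, at -2.58, KHDRBS3 at 2.18 and QKI, which favours mesenchymal forms, at 1.52, and 0 of 11 were called by limma in HCC1937 (5 of 11 at an unadjusted p under 0.05). Of the 6 reference genes such as ACTB and GAPDH 0 were called by limma in either line (4 and 0 at an unadjusted p under 0.05).

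Over the 15 libraries, the genes whose log2 levels followed each member most closely were named among 13839 genes, as a description. The libraries form 5 groups of 3 and SUM159 lies far from the rest. ESRP1 was most like EPCAM (r = 0.997), MPZL2 and RAB25, and ESRP2 most like GRAMD3 (r = 0.998), EVPL and RAPGEFL1. GRHL1 was closest to LAMA3 (r = 0.998), RASSF5 and EMP1, GRHL2 to CCDC64 (r = 0.997), EPHA1 and MARVELD3, and GRHL3 to PADI3 (r = 0.987), KIAA0040 and HCAR2. OVOL1 was closest to ESPN (r = 0.996), TTC9 and PADI2, and OVOL2 to ZSCAN12P1 (r = 0.982), ALOX12P2 and CDC42BPG. ELF3 was followed by ERMP1 (r = 0.996), CMTM4 and the laminin gene LAMB3. EHF stood with SLU7 (r = 0.999), LRIG2 and DDX3X. The splicing factor gene SLU7 was at 8.79 and 8.81 FPKM in SUM149 non-CSC and CSC, 9.78 and 10.6 FPKM in HCC1937 and 0.940 FPKM in SUM159. ELF5 averaged under 1 FPKM in each group and was not ranked.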

How the data were processed

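The values are FPKM as deposited by the authors, 1 column per library and 1 value per gene; the submitters' processing notes name Bowtie2 and GRCh38, and the quantification tool and any scaling between libraries are not stated. Log2(FPKM + 0.1) was fitted for all genes that averaged 0.1 FPKM or more over the libraries compared, with limma 3.58.1 in R 4.3.3, two-sided, with adjustment over all genes tested. Shares within families were tested by the exact permutation over libraries in Python 3.11.15 with numpy 2.4.6. Gene positions are from GENCODE 29 and promoters from RefSeq.

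The fit was tested on simulated data, and no result given here rests on the outcome. The members and the gene lists were chosen with earlier results of these data known. From each list and each comparison of fractions, the text names up to 3 called genes with the largest change whose fractions do not overlap, all genes of lists of 4 or fewer, and the 3 genes most similar to each member; others named were chosen after their values were seen.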

Additional observations from a re-analysis of the deposited data

Results flagged for a closer look

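The change between CSC and non-CSC differed between SUM149 and HCC1937 by the interaction test for 8 of the 10 regulators at an adjusted p of at most 0.05, without a fold limit, where 10053 of 16451 genes did. The SUM149 change minus the HCC1937 change was -1.81 for ESRP1, -2.74 for ESRP2, -1.77 for GRHL2, -1.50 for OVOL1 and -1.82 for OVOL2. It was -0.40 for GRHL1, which is under the fold limit. GRHL3 and ELF5 had positive differences of 1.77 and 2.10, and ELF5 was at or near 0 in SUM149, so that its difference restates its change in HCC1937. Both lines moved downward for each of these genes other than ELF5, which was not tested in SUM149, and OVOL2 in HCC1937 and GRHL3 in SUM149 were not called there. Why the lines differ was not tested.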

How the results depend on the processing

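The counts of members called were recomputed under 13 alternatives, the fold changes of single genes under 8 to 11, and both without each library in turn where the gene was still tested. The family shares were recomputed only without each library, and the counts of the other gene lists and the most similar genes were not recomputed. Without 1 library the OVOL1 share in CSC minus non-CSC ran from -26.9 to -5.23 points in HCC1937 and from -2.54 to -0.0251 in SUM149. The difference of the GRHL2 share in HCC1937 ran from -4.52 to -0.613 points and that of ESRP1 in SUM149 from 1.39 to 4.14. Of 2124 single values 2053 kept their direction and their side of the threshold, 51 lost the call, 15 gained it and 5 changed sign; of 139 counts of members called 127 stayed within 1.5 times the original. A pseudocount of 1, which shrinks differences between low levels by construction, left 3 members called for the difference between lines (2872 of 16451 genes), 2 between the lines in either fraction (4269 of 16433 in non-CSC, 4287 of 15952 in CSC) and 4 for SUM159 against SUM149 CSC (7329 of 14976). A minimum mean of 1 FPKM, under which fewer genes are tested, left 2 of 6 members tested for the lines in CSC (4887 of 11930 genes), 3 of 3 for SUM159 against SUM149 CSC (7617 of 11021) and 5 of 5 against HCC1937 CSC (7619 of 11359). The study's cutoff, an adjusted p of at most 0.0001, left 2 in each comparison of lines (4508 of 16433 genes in non-CSC, 4378 of 15952 in CSC) and 0 in HCC1937 CSC against non-CSC, where 0 of all 15582 genes pass it (limma, where 9 members have an unadjusted p under 0.05). Without a fold limit 9 of 10 differed between the lines in non-CSC, where 12659 of 16433 genes did, and 7 of 9 in CSC, where 12236 of 15952 did.

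The sign changed for EHF in SUM149 with upper quartile scaling (0.0175), for OVOL1, HCC1937 against SUM149, CSC, with quantile normalization (-0.084) and, as for ELF3 in the difference between lines (0.0485), with the GC trend removed (-0.163), an alternative chosen after seeing the data. OVOL2 between the lines in non-CSC ranged from -0.178 to 0.0459 with 1 library left out. None of these was called, and the cause was not tested. Pairing by replicate number was not clear. Across genes, same-number r was 0.14, 0.02 and 0.13 in SUM149 and -0.13, -0.05 and -0.03 in HCC1937. Different-number r ran from -0.20 to 0.07 in SUM149 and from -0.09 to 0.13 in HCC1937. The replicate block gave 7 members in SUM149 and 8 in HCC1937.

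Scaling moved the median of all genes in SUM149 from -0.11 to 0.11 with quantile normalization, where 50.9% and not 36.5% of the called genes were higher. In HCC1937 the share higher went from 31.1% to 42.1% with TPM rescaling. For SUM159 the medians of -0.76 and -0.97 became 0.10 and 0.07 with quantile normalization and -1.72 and -1.83 with TPM rescaling. Between the lines the CSC median of 0.24 became 0.05 with quantile normalization, and the non-CSC median of 0.10 became -0.09 with TPM rescaling. The depth of the libraries is unknown, so no lower limit can be set for genes listed at 0.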

Other observations

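SNAI1, a repressor of E-cadherin, was at 373 FPKM in SUM149 non-CSC, the fraction with 78.3 FPKM of CDH1, and at 61.9 FPKM in SUM149 CSC, with 3.32 FPKM of CDH1. In HCC1937 SNAI1 was at 9.19 and 9.97 FPKM, with CDH1 at 82.8 and 16.9 FPKM.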
